A study of Mus musculus with 18 samples.

Results

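Basal cells of the mouse mammary gland were compared between mid pregnancy and adulthood, using 2 sorted libraries of each stage. A gene entered the comparison when its deposited value was 10 or more in at least 2 of these 4 libraries, which 19423 genes met, out of 22269 tested across the whole series of 18 libraries. The groups were Pregnancy BC and Adult BC, where BC stands for basal cells. Puberty basal cells and the estrogen receptor positive (ER+) and negative (ER-) luminal cells (LC) of each stage were set beside them where they bear on a result. All mice, adult ones included, carried ERrtTA/TetOCre/rosaYFP, that is a reverse tetracycline transactivator, a Cre recombinase under its control and a fluorescent reporter of recombination. The ages of the mice, the day of pregnancy, the sorting gates, any doxycycline treatment, and whether cells of several mice were pooled are not stated in the labels.

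Basal, or myoepithelial, cells form the outer layer of mammary ducts and alveoli. They lie on the basement membrane, make part of it, and carry smooth muscle proteins whose contraction, driven by oxytocin, ejects milk from the alveoli during lactation. They also signal to the luminal cells through WNT ligands, EGF family ligands and the matrix, and during pregnancy, when the epithelium grows and alveoli form, they spread around the new alveoli.

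Values are the deposited ones, scaled by the authors to a library total near 20000000. Log2 fold changes are pregnancy minus adult, of value + 1, and stand with their standard error (±). Adjusted p-values come from limma, fitted to all 18 libraries and adjusted by the Benjamini-Hochberg method over all 22269 genes, 2-sided. A gene was called at an adjusted p under 0.05. The labels do not say that the 2 libraries of a group came from separate mice, so the p-values speak only of how far these samples spread, and that spread may be technical. Exact permutation of 2 libraries against 2 cannot give a p below 0.333, so no such test was used.

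The libraries held 6031110 and 5996673 reads in genes in Pregnancy BC, against 7897283 and 4231706 in Adult BC. The label of cell type reads "BC luminal cells" for the pregnancy samples and "basal cells" for the adult ones. By the 20 basal lineage markers the pregnancy libraries were basal, since the markers summed to 421599 and 405877 there, against 229947 and 235728 in Adult BC and between 53274 and 69356 in the 4 pregnancy luminal libraries. In sorted bulk samples, fewer cells of a type and less RNA per cell cannot be told apart. The 2 adult libraries differed from each other. The casein gene Csn2 was at 97320 and 132154 in Pregnancy BC, at 77881 in Adult BC 1 and at 6854 in Adult BC 2, while the puberty basal libraries had 21 and 53. Mki67, a marker of cycling cells, was at 13861 and 12206 in Pregnancy BC, 10126 in Adult BC 1 and 1252 in Adult BC 2. Of the members, 12902 of 19423 (66.4%) lay nearer the pregnancy mean in Adult BC 1 than in Adult BC 2. Spearman correlations across genes were 0.977 between the pregnancy libraries, 0.956 between the adult ones, 0.952 between either pregnancy library and Adult BC 1, and 0.921 and 0.92 with Adult BC 2. Among gene IDs listed more than once with unlike values, the order of the values over the repeated rows matched between pregnancy columns in 582 of 582 pairs of columns and IDs, among puberty and adult basal columns in 1121 of 1127, and between these 2 sets in 0 of 1902. The pregnancy and adult basal columns thus seem to come from parts that were joined to the table separately, which the labels do not state. An effect of such parts and the stage cannot be told apart.

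**Figure D1:**
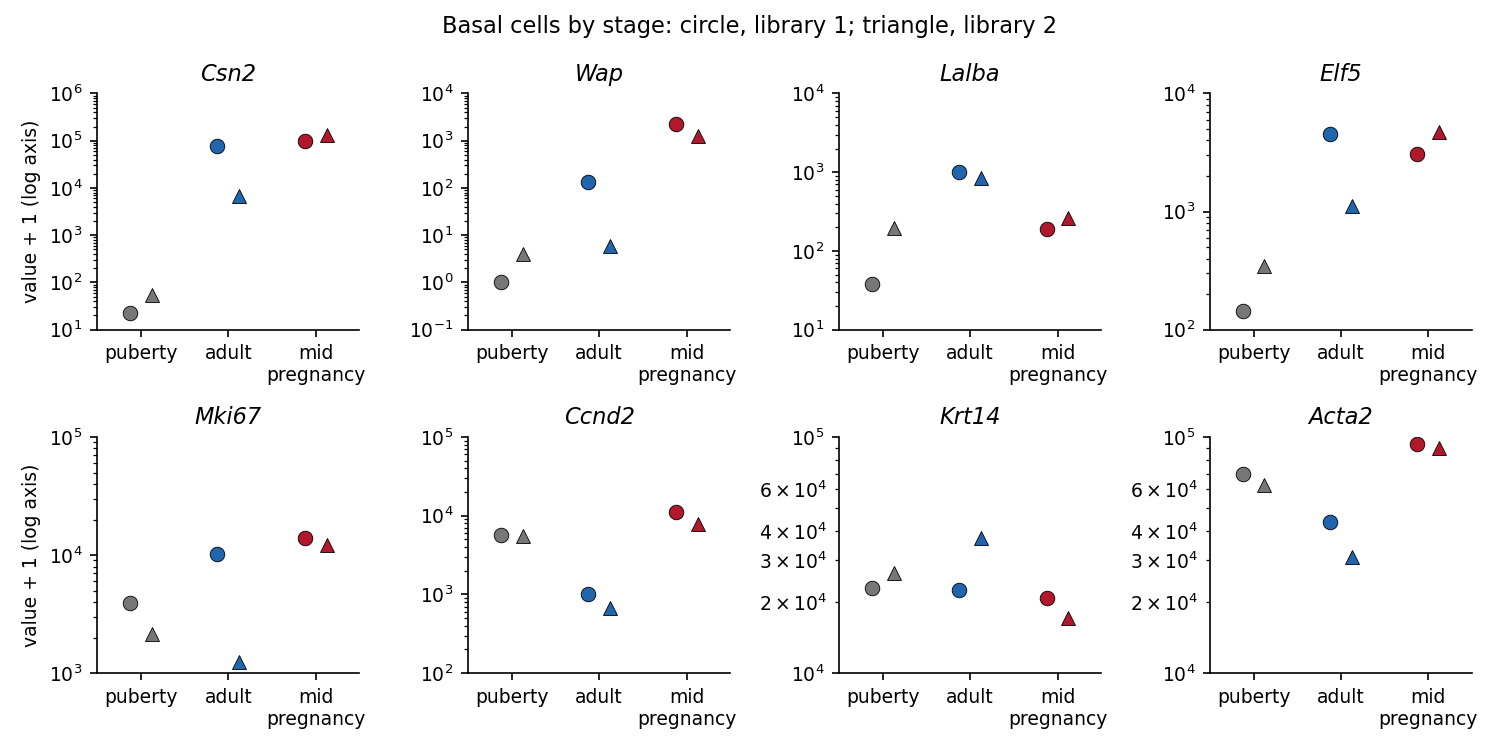
Deposited normalised value + 1 (log axis) of 8 genes in the 2 basal libraries of each stage; circles are library 1 and triangles library 2. Adult BC 1 lies with the pregnancy libraries for Csn2 (77881) and Mki67 (10126), whereas for Acta2, Ccnd2 and Wap both adult libraries lie below both pregnancy libraries.

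The change from adult to pregnancy was broad. Of the 19423 members, 645 were called higher in pregnancy (3.32%) and 953 lower (4.91%), 1598 in all (8.23%). These shares are to be set beside the count of each gene list below. Over all genes tested, 7.28% were called. At an unadjusted p under 0.05 there were 5279 members, and the median log2 fold change over all members was -0.07. The called rises had a median size of 1.17 on the log2 scale, and 384 of them were at least 1. The called falls had a median size of 1.43, and 670 were at least 1. Both pregnancy libraries lay above both adult ones in 5435 members (28.0%) and below in 6890 (35.5%), so a lack of overlap alone was common. The entry rule itself let in 263 members that reached 10 in no adult library and 812 that reached it in no pregnancy library. The share of falls among the calls moved with the method. edgeR on recovered reads called 1190 higher and 1065 lower, and median-ratio size factors gave 1047 and 1047. Each library weighed on the count: 251 were called without Pregnancy BC 1, 341 without Pregnancy BC 2, 2500 without Adult BC 1 and 193 without Adult BC 2.

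**Figure D2:**
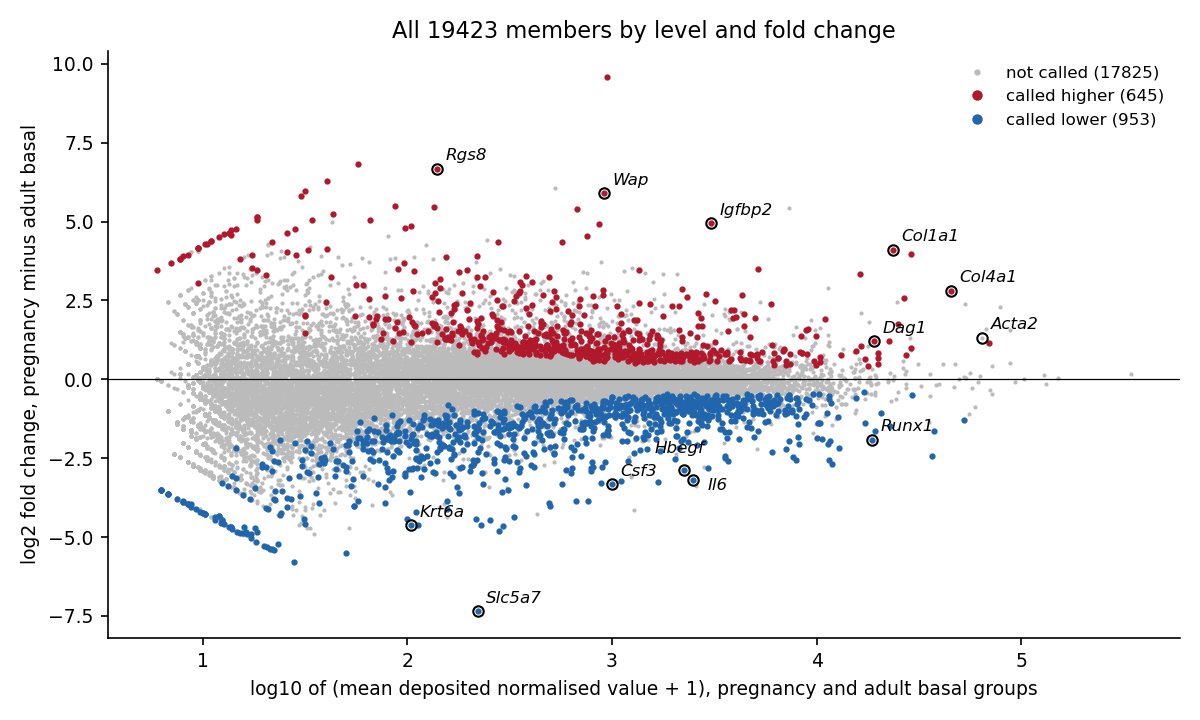
Log2 fold change, pregnancy minus adult basal cells, against the log10 mean value of each of 19423 members. Members called higher (645) are red, called lower (953) blue, and the others grey; circled genes are named in the text.

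The contractile apparatus was higher in pregnancy than in adults, but this was not particular to pregnancy. The list summed to 515504 and 501871 in Pregnancy BC, 256532 and 210981 in Adult BC, and 465017 and 390544 in Puberty BC. Of 29 tested genes of this list, 8 were called higher and 0 lower, against 3.32% and 4.91% of all members, and the list's median log2 fold change was 0.75. Acta2, smooth muscle actin (ENSMUSG00000035783, GRCm38 chr19:34241090-34255590, minus strand), had 93797 and 89496 in Pregnancy BC, against 43643 and 31050 in Adult BC. The groups did not overlap, yet with the spread shared over all 18 libraries the fold change of 1.32 ± 1.12 missed the threshold (adjusted p = 0.505). Acta2 varied widely in luminal libraries of the same group, such as 3240 and 225 in Puberty LC ER+. In a fit of the 6 basal libraries alone it was called (adjusted p = 0.00886). The smooth muscle myosin Myh11, at 98009 and 102887 in Pregnancy BC, against 39629 and 27497 in Adult BC, behaved likewise (1.60 ± 1.42, adjusted p = 0.523, and 0.00642 in basal libraries alone). So did the actin-binding calponin Cnn1, at 15814 and 15298 in Pregnancy BC, against 6376 and 4055 in Adult BC (1.61 ± 0.92, adjusted p = 0.306, and 0.00886 in basal libraries alone). In that fit 18 of the 29 were called higher and 0 lower. edgeR on recovered reads of all 18 libraries called 9 higher and 0 lower. It did not call Acta2, Myh11 or Cnn1 (adjusted p = 0.345, 0.344 and 0.111).

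Members of the contractile list with steadier spread were called with all libraries. Cnn2, a calponin found beyond muscle, was at 7025 and 6391 in Pregnancy BC, against 2533 and 1735 in Adult BC (1.68 ± 0.25, adjusted p = 0.00166). Enteric smooth muscle actin, Actg2, was at 3781 and 3742 in Pregnancy BC, against 980 and 277 in Adult BC (2.85 ± 0.77, adjusted p = 0.0437). Tropomyosin Tpm1, which winds along actin filaments, was at 25439 and 23765 in Pregnancy BC, against 15230 and 15272 in Adult BC (0.69 ± 0.18, adjusted p = 0.0336). In each of these 3 the pregnancy libraries lay close together and above both adult ones. They lay above both adult ones in 28.0% of all members. Vcl, which encodes vinculin of cell adhesions, had 11230 and 10288 in Pregnancy BC, against 6964 and 5269 in Adult BC (0.83 ± 0.17, adjusted p = 0.00926). Srf, the serum response factor that drives smooth muscle genes, had 3837 and 3749 in Pregnancy BC, against 2548 and 1983 in Adult BC (0.75 ± 0.16, adjusted p = 0.0112). The crosslinkers of actin Flna and Actn1 and the myosin light chain Myl6 were the remaining called members, and Flna lost its call without Pregnancy BC 1, Pregnancy BC 2 or Adult BC 2 (up to 0.332). Of the 5 given with values, Cnn2 kept its call under every alternative run. The others lost it without Pregnancy BC 1, Pregnancy BC 2 or Adult BC 2 in turn, with adjusted p up to 0.352 for Actg2, 0.193 for Tpm1, 0.145 for Vcl and 0.16 for Srf, and Tpm1 lost it without Adult BC 1 too. With these libraries left out in turn, 1, 1, 6 and 1 of the 29 were called higher, Adult BC 1 being the one whose removal left 6.

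Serum response factor binds a DNA motif known as the CArG box, so RefSeq promoter windows of the contractile list were searched for it. Windows ran from 250 bases before to 50 after the gene start (build GRCm38.p6), and the motif reads the same in form on both strands. It was present in 4 of 24 contractile genes with a window (16.7%) and in 3 of the 7 called higher (42.9%). Of all RefSeq windows, 425 of 27025 held it (1.57%), and of the members' windows 157 of 12123 (1.3%). The 4 windows with a box are shown, with the box in capitals, because they belong to Srf itself and to genes described here. Acta2, Cnn1, Tpm1 and Flna, also described here, had no box of the exact form searched in their windows. The first box begins 161 bases before the start in Myl9, 56 in Cnn2, 227 in Vcl and 82 in Srf, which has a pair of them. A match is a stretch of letters and not a measured binding site. In Pregnancy BC, Myl9, the smooth muscle myosin light chain, was at 12126 and 11762, against 4512 and 3165 in Adult BC (1.66, adjusted p = 0.41, 0.00647 in basal libraries alone and 0.209 by edgeR). It was named after its values were seen. The windows lie at chr2:156775214-156775513 (plus strand), chr10:79988350-79988649 (plus strand), chr14:20929148-20929447 (plus strand) and chr17:46556113-46556412 (minus strand), in the order printed.
Myl9: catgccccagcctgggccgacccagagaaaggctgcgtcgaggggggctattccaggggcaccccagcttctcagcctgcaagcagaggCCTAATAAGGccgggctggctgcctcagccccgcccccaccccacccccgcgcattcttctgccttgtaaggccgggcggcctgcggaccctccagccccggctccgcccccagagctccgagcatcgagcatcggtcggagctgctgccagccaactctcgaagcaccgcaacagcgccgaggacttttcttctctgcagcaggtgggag
Cnn2: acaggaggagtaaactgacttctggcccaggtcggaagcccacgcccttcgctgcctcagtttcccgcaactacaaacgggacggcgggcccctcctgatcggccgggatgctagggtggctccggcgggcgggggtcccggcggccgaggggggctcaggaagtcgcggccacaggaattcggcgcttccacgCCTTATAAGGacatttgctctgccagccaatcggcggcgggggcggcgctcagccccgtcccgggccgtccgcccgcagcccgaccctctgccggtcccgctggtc
Vcl: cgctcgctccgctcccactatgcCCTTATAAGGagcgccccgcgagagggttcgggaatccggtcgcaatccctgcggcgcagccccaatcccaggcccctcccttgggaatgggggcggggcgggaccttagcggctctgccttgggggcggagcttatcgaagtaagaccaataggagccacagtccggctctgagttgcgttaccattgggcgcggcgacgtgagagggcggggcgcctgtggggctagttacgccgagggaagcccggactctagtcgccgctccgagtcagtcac
Srf: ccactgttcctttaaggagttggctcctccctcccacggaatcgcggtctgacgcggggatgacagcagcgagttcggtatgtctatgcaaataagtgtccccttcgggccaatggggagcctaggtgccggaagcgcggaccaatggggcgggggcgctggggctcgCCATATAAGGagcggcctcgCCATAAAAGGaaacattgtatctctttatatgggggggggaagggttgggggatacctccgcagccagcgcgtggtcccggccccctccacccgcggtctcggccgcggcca

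Oxytocin makes basal cells contract through its receptor and calcium release. Oxtr, the oxytocin receptor, had 18837 and 20239 in Pregnancy BC, against 10508 and 11147 in Adult BC, and 49019 and 34268 at puberty. Pregnancy lay above adult by 0.85 ± 0.57 with no call (adjusted p = 0.386). Basal libraries alone gave a call (adjusted p = 0.0305), and edgeR did not (adjusted p = 0.229). Of 33 genes of oxytocin response and calcium handling, 1 was called higher and 2 lower (median -0.18), near the 3.32% and 4.91% of all members, and in basal libraries alone 3 and 3. The higher one was Gna11, a G protein subunit that couples receptors to calcium release, at 1298 and 1322 in Pregnancy BC, against 880 and 722 in Adult BC (0.72 ± 0.19, adjusted p = 0.034). The lower ones were the cation channel gene Trpc1 (-2.17 ± 0.46, adjusted p = 0.0114) and Pln, an inhibitor of the calcium pump of muscle (-2.30 ± 0.64, adjusted p = 0.0412). None of the 3 was called without Pregnancy BC 1, Pregnancy BC 2 or Adult BC 2, with adjusted p up to 0.285 for Gna11, 0.179 for Trpc1 and 0.27 for Pln, which was not called without Adult BC 1 either.

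Of 20 basal lineage markers, 2 were called higher and 1 lower (median 0.53), against 3.32% and 4.91% of all members. Of the 20, 5 also stand in the contractile list. In basal libraries alone 10 were called higher and 1 lower. The 20 summed to 421599 and 405877 in Pregnancy BC, 229947 and 235728 in Adult BC, and 443839 and 386872 in Puberty BC. The basal keratin Krt5 was at 11391 and 9384 in Pregnancy BC, against 8205 and 9605 in Adult BC (0.22 ± 0.72, adjusted p = 0.886), with the groups overlapping. Its partner Krt14 was at 20793 and 17060, against 22435 and 37242 (-0.62 ± 0.62, adjusted p = 0.574). Trp63, the transcription factor of basal epithelia, was at 10387 and 9166 in Pregnancy BC, against 5660 and 5986 in Adult BC (0.75 ± 0.72, adjusted p = 0.56, 0.0173 in basal libraries alone and 0.328 by edgeR). The markers called higher were the matrix protein gene Sparc (0.99 ± 0.21, adjusted p = 0.0123) and the laminin-binding integrin Itga6 (0.76 ± 0.17, adjusted p = 0.0161). Lower was Lgr5, the R-spondin receptor known from stem cells of several epithelia, at 896 and 779 in Pregnancy BC, against 1930 and 5785 in Adult BC (-2.00 ± 0.46, adjusted p = 0.02). All 3 lost the call without Pregnancy BC 1, Pregnancy BC 2 or Adult BC 2, with adjusted p up to 0.125, 0.198 and 0.234 for Sparc, Itga6 and Lgr5. The runt factor gene Runx1 fell and kept its call under every alternative run, at 7736 and 7100 in Pregnancy BC, against 19536 and 39961 in Adult BC (-1.91 ± 0.28, adjusted p = 0.00247).

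Among lists with at least 10 tested genes, basement membrane genes had the largest share of calls. Of 25 laminin, type IV collagen and related genes, 11 were called higher and 0 lower, with a median log2 fold change of 1.23. The list summed to 380956 and 355850 in Pregnancy BC, 156338 and 127140 in Adult BC, and 315814 and 265544 in Puberty BC. The adult libraries were thus the low ones of the stages. The type IV collagen chain Col4a1, the scaffold of the membrane, had 80473 and 76569 in Pregnancy BC, against 15730 and 8030 in Adult BC (2.80 ± 0.41, adjusted p = 0.00355). Its partner chain Col4a2 had 46578 and 44420, against 10227 and 5785 (2.56 ± 0.40, adjusted p = 0.00422). For both, the lower pregnancy library was over 4 times the higher adult one. Among laminin chains, Lamc1, shared by most laminins, had 41052 and 36007 in Pregnancy BC, against 13201 and 9816 in Adult BC (1.76 ± 0.25, adjusted p = 0.00125). The chain Lama2 had 5530 and 4411, against 626 and 910 (2.71 ± 0.65, adjusted p = 0.0331). Lama1 had 28406 and 26570, against 12512 and 4875, and missed the threshold (1.81 ± 0.59, adjusted p = 0.0859). Col15a1, a collagen that bridges the membrane to the stroma, had 3906 and 3183 in Pregnancy BC, against 716 and 680 in Adult BC (2.34 ± 0.36, adjusted p = 0.00213), and the anchoring fibril gene Col7a1 had 13463 and 13226, against 6265 and 3165 (1.58 ± 0.37, adjusted p = 0.0207). Col4a1, Lamc1 and Col15a1 kept their calls under every alternative run. Col4a2 lost it without Adult BC 2 (adjusted p = 0.0563), and Lama2 and Col7a1 without Pregnancy BC 1, Pregnancy BC 2 or Adult BC 2 (up to 0.17 and 0.238), Lama2 also without Adult BC 1. List counts without Pregnancy BC 1, Pregnancy BC 2, Adult BC 1 and Adult BC 2 were 6, 6, 12 and 4.

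**Figure D3:**
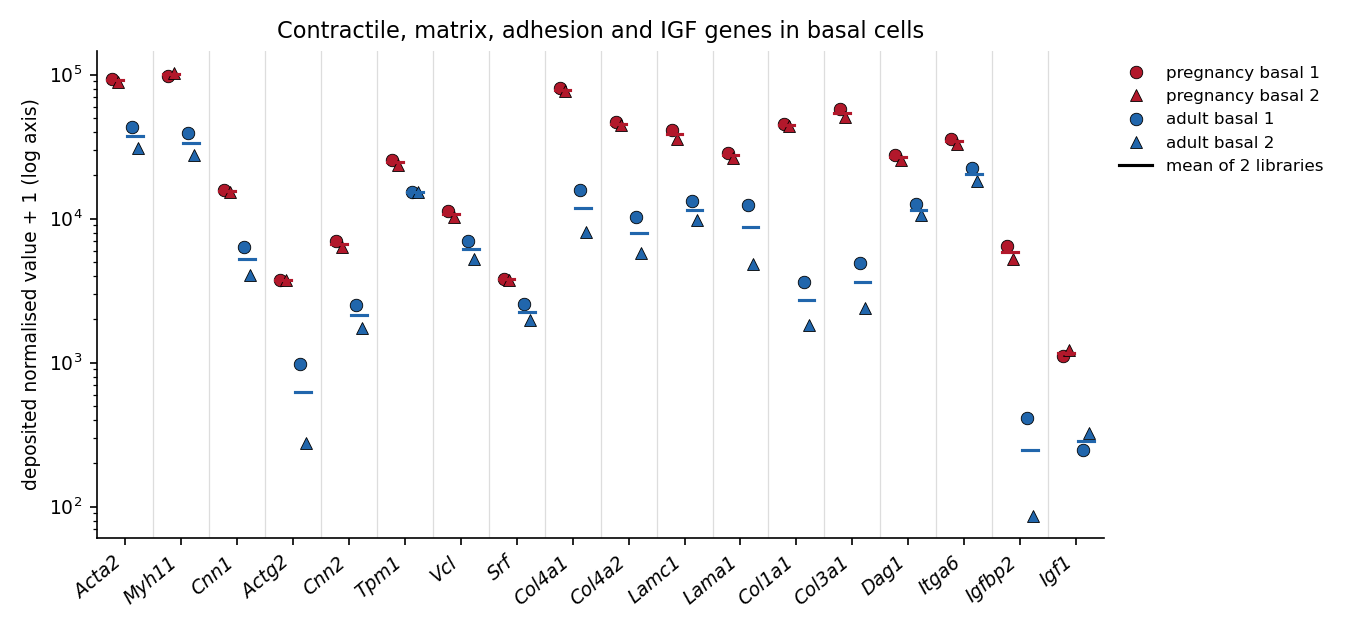
Deposited normalised value + 1 (log axis) of 18 contractile, matrix, adhesion and IGF genes in Pregnancy BC (red) and Adult BC (blue); circles are library 1, triangles library 2, and bars the mean of 2 libraries. In all 18, chosen with earlier results of these data known, both pregnancy libraries lie above both adult ones, as in 28.0% of all members. Col1a1 is at 45547 and 43795 against 3653 and 1833.

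Interstitial collagens were higher too, together with markers of fibroblasts. Of 41 fibrillar collagen and matrix glycoprotein genes, 8 were called higher and 1 lower (median 1.41). Col1a1, of type I collagen, had 45547 and 43795 in Pregnancy BC, against 3653 and 1833 in Adult BC (4.11 ± 0.70, adjusted p = 0.00926). Col3a1 had 57600 and 50702, against 4889 and 2396 (3.98 ± 0.79, adjusted p = 0.0167), and Col5a3 had 1538 and 1262, against 237 and 207 (2.65 ± 0.34, adjusted p = 0.000623). The elastic fibre gene Mfap4 had 995 and 1179 in Pregnancy BC, against 53 and 52 in Adult BC (4.34 ± 0.53, adjusted p = 0.000374). The tenascin gene Tnn fell, at 149 and 93 in Pregnancy BC, against 603 and 680 in Adult BC (-2.43 ± 0.40, adjusted p = 0.00309). Col5a3 and Mfap4 kept their calls under every alternative run. Col1a1 and Col3a1 lost theirs without Pregnancy BC 1, Pregnancy BC 2 or Adult BC 2 (up to 0.1 and 0.162), and Tnn without Pregnancy BC 2 (adjusted p = 0.05). Without Pregnancy BC 1, Pregnancy BC 2, Adult BC 1 and Adult BC 2, the numbers called higher were 1, 1, 11 and 1. Of 11 fibroblast markers, 3 were called higher, all of them collagens (median 2.25). In 11 of 11 both pregnancy libraries lay above both adult ones, as they did in 28.0% of all members. Without Pregnancy BC 1, Pregnancy BC 2 or Adult BC 2 none of these 3 was called. All 11 markers summed to 162870 and 150060 in Pregnancy BC, against 23648 and 18222 in Adult BC. The 8 markers other than collagens summed to 29094 and 26957, against 11569 and 11578, with a median of 1.61. Of these 8, limma called 0 (3 at an unadjusted p under 0.05) and edgeR 1, while in basal libraries alone 8 of the 11 were called. None of the 11 was at 0 in both libraries of either group. The part of fibroblast RNA in these results was not tested.

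Integrins and other receptors bind the basement membrane, and chaperones of the endoplasmic reticulum fold secreted proteins. Of 24 integrin and hemidesmosome genes, 4 were called higher and 0 lower (median 0.29), against 3.32% and 4.91% of all members. Dag1, the dystroglycan receptor for laminin, had 27722 and 25583 in Pregnancy BC, against 12606 and 10547 in Adult BC (1.21 ± 0.14, adjusted p = 0.000314), and kept its call under every alternative run. Itga6, which pairs with a beta chain to bind laminin, had 35892 and 33010, against 22565 and 18329, and the laminin-binding Itga3 had 8678 and 7173, against 4253 and 4618 (0.83 ± 0.17, adjusted p = 0.0108). Itga3 lost the call without Pregnancy BC 1 or Adult BC 2 (up to 0.129), and Itga6 was lost as given above. The hemidesmosome integrin Itgb4 was not called, at 1759 and 1550, against 2088 and 2888 (-0.57, adjusted p = 0.0721). Of 25 endoplasmic reticulum folding genes, 7 were called higher and 2 lower (median 0.49). Calreticulin, Calr, a chaperone of glycoproteins, had 11813 and 11037 in Pregnancy BC, against 7137 and 5893 in Adult BC (0.82 ± 0.14, adjusted p = 0.00348). Hsp90b1, another lumenal chaperone, had 11664 and 9745, against 6780 and 5124 (0.85 ± 0.18, adjusted p = 0.0122). Both were lost without Pregnancy BC 1 or Adult BC 2 (up to 0.0702 and 0.176). The stress regulator Atf4 went the other way, at 5049 and 4865 in Pregnancy BC, against 9280 and 10997 in Adult BC (-1.03 ± 0.16, adjusted p = 0.00168), with its call kept under every alternative run. Without Pregnancy BC 1, Pregnancy BC 2, Adult BC 1 and Adult BC 2, integrin genes called higher numbered 1, 2, 5 and 1, and folding genes 0, 2, 10 and 0. Of 28 genes of matrix proteases and their inhibitors, 2 were called higher and 3 lower, against 3.32% and 4.91% of all members. The higher ones were Adam12 and Adam19, and the lower ones Adamts1, Plaur and Serpinb5. Adam12 rose, at 955 and 858 in Pregnancy BC, against 121 and 183 in Adult BC (2.60 ± 0.39, adjusted p = 0.00168), under every alternative run. Adamts1, a protease of proteoglycans, fell to 12913 and 9083 in Pregnancy BC, against 38700 and 86396 in Adult BC (-2.42 ± 0.54, adjusted p = 0.0246), and lost the call without Pregnancy BC 1, Pregnancy BC 2 or Adult BC 2 (up to 0.213).

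**Figure D4:**
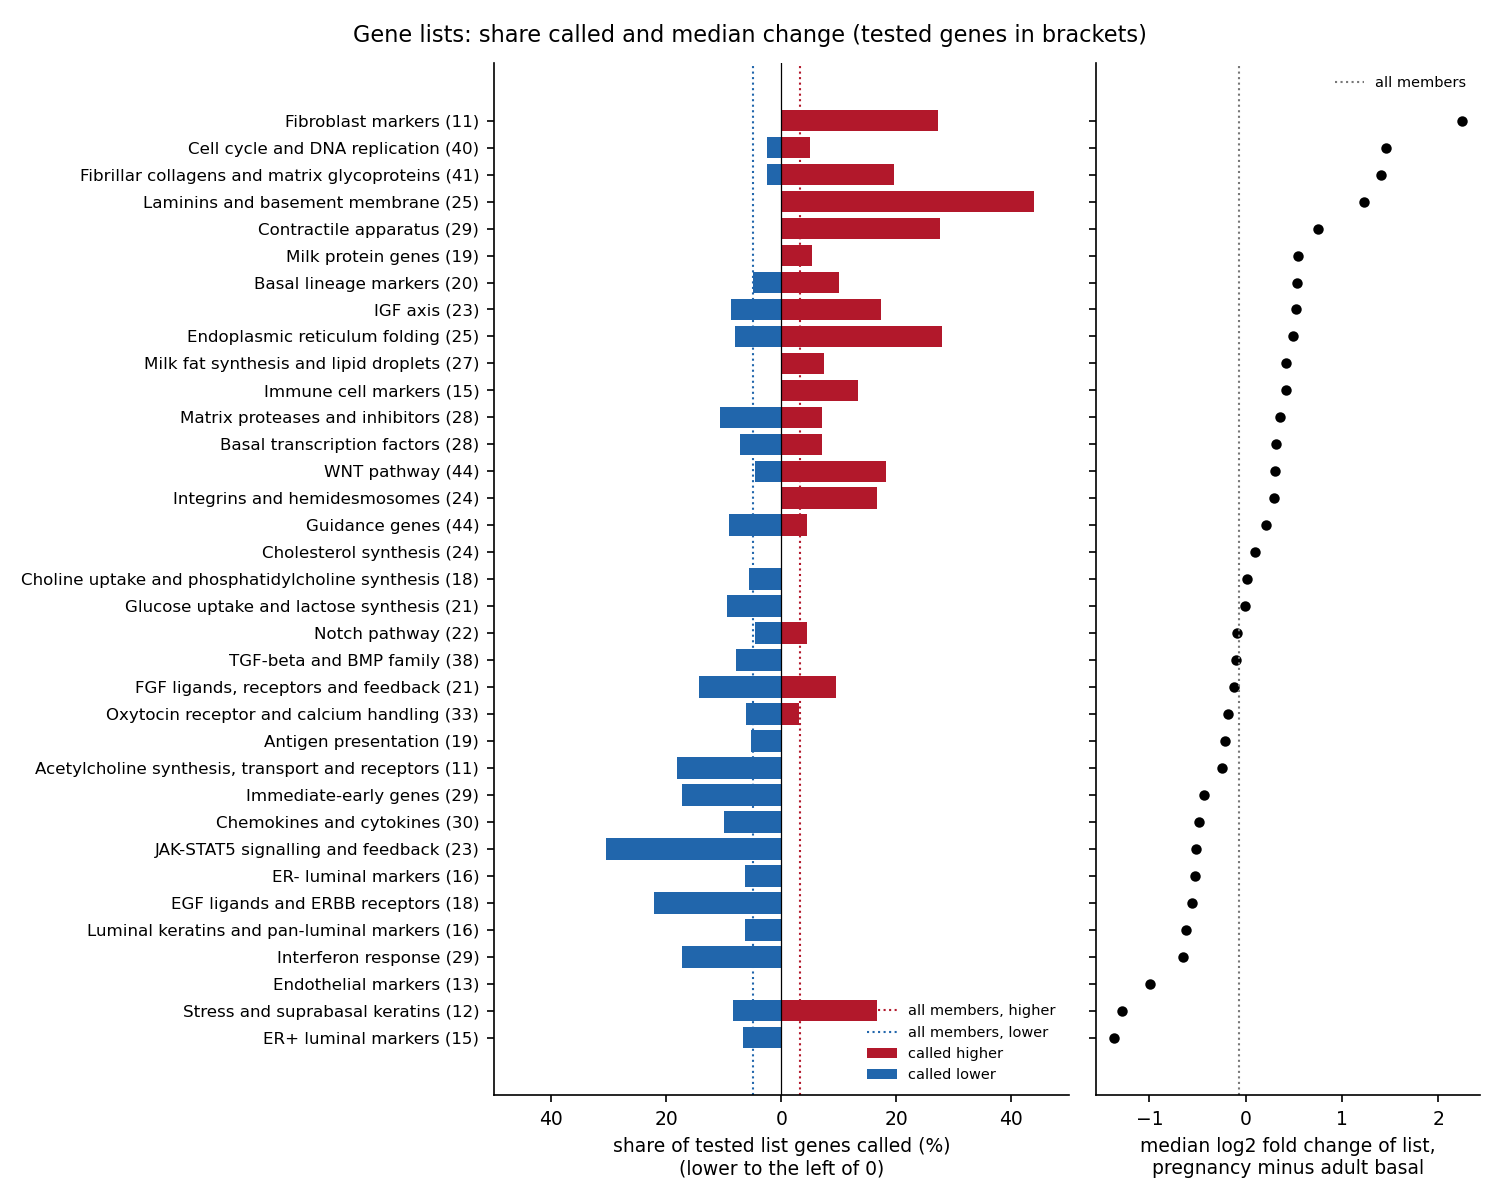
Left, share of the tested genes of each list called higher (red, right of 0) or lower (blue, left of 0) in pregnancy, with dotted lines at the shares of all members (3.32% and 4.91%). Right, median log2 fold change of each list; lists with at least 10 tested genes are shown, and the basement membrane list has the largest share called, 11 of 25.

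Insulin-like growth factor (IGF) genes rose in part. The IGF system consists of ligands that drive growth and survival, and of binding proteins that hold or release them. Igfbp2, a binding protein (ENSMUSG00000039323, chr1:72824503-72852474, plus strand), had 6504 and 5242 in Pregnancy BC, against 412 and 85 in Adult BC, and 1879 and 1459 at puberty. It rose by 4.95 ± 0.74 (adjusted p = 0.00232). The ligand Igf1 had 1117 and 1216 in Pregnancy BC, against 247 and 324 in Adult BC (2.04 ± 0.31, adjusted p = 0.00166). Igfbp4 had 4515 and 3835, against 1349 and 1252 (1.68 ± 0.30, adjusted p = 0.00482). H19, an imprinted noncoding RNA from the Igf2 locus, had 462 and 358, against 18 and 38 (3.90 ± 0.72, adjusted p = 0.00722). Of 23 IGF axis genes, 4 were called higher, those just given, and 2 lower, the RNA-binding genes Igf2bp3 (-2.55 ± 0.47) and Igf2bp2 (-1.71 ± 0.37). Igfbp5, a binding protein linked to involution, was at 102958 and 103009 in Pregnancy BC, against 79067 and 65522 in Adult BC, and was not called (0.52 ± 0.28, adjusted p = 0.269). Igfbp2 and Igf1 kept their calls under every alternative run; Igfbp4 lost it without Pregnancy BC 1 or Adult BC 2 (up to 0.0717), H19 without Pregnancy BC 1 (0.0709), Igf2bp3 without Pregnancy BC 1 or Adult BC 2 (up to 0.0969), and Igf2bp2 without Pregnancy BC 1, Pregnancy BC 2 or Adult BC 2 (up to 0.122).

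Cell cycle genes were mostly higher in pregnancy but few were called, and Adult BC 1 lay near the pregnancy libraries. Of 40 genes, 38 had a fold change above 0 (median 1.46). Called higher were 2 and lower 1, against 3.32% and 4.91% of all members. Ccnd2, a D-type cyclin, rose and did not follow Adult BC 1, at 11108 and 7861 in Pregnancy BC, against 1013 and 680 in Adult BC (3.49 ± 0.80, adjusted p = 0.0287). Cdkn1c, an inhibitor of the cell cycle, rose as well, at 722 and 630, against 93 and 183 (2.36 ± 0.58, adjusted p = 0.0233). Cdkn1a, the inhibitor p21, fell, at 969 and 825 in Pregnancy BC, against 2203 and 4313 in Adult BC (-1.78 ± 0.31, adjusted p = 0.00459). Mki67 was not called (1.87 ± 1.12, adjusted p = 0.335). Adult BC 1 exceeded Adult BC 2 in 35 of the 40 genes, by a median of 1.48 on the log2 scale, against 52.8% of all members. Without Adult BC 1, 14 of the 40 were called higher and 1 lower (median 2.16), and without Adult BC 2, 0 were called in either direction (median 0.42). Without Pregnancy BC 1 and Pregnancy BC 2 the number called higher was 0 in each case. Ccnd2 and Cdkn1c lost their calls without Pregnancy BC 1, Pregnancy BC 2 or Adult BC 2 (up to 0.204 and 0.152), Cdkn1c also without Adult BC 1, and Cdkn1a without Pregnancy BC 2 or Adult BC 2 (up to 0.0766).

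Several members of the WNT pathway were called higher. Of 44 tested WNT pathway genes, 8 were called higher and 2 lower (median 0.30), against 3.32% and 4.91% of all members. The number called lower was thus near the share of all members. Ror2, a receptor for WNT ligands such as Wnt5a, had 557 and 338 in Pregnancy BC, against 121 and 33 in Adult BC (2.76 ± 0.56, adjusted p = 0.01). The WNT and BMP antagonist Sostdc1 had 1762 and 1361, against 382 and 122 (2.84 ± 0.70, adjusted p = 0.029). Axin2, a feedback target of the beta-catenin branch, had 425 and 365, against 184 and 108 (1.48 ± 0.40, adjusted p = 0.037). The groups did not overlap in any of these, and 28.0% of all members likewise had both pregnancy libraries above both adult ones. The receptor Fzd2 had 837 and 656 in Pregnancy BC, against 292 and 221 in Adult BC (1.54 ± 0.32, adjusted p = 0.0115), and Wnt11 had 178 and 156, against 453 and 1200 (-2.14 ± 0.46, adjusted p = 0.0123). Each of these 5 lost its call without at least Pregnancy BC 1 and Adult BC 2, and without Pregnancy BC 2 except for Ror2 (up to 0.16 for Ror2, 0.283 for Sostdc1, 0.333 for Axin2, 0.141 for Fzd2 and 0.206 for Wnt11). Numbers of WNT genes called higher without Pregnancy BC 1, Pregnancy BC 2, Adult BC 1 and Adult BC 2 were 0, 1, 7 and 0. Of 22 Notch pathway genes, 1 was called higher and 1 lower, near the shares of all members. Higher was the glycosyltransferase Lfng that tunes Notch receptors (1.37 ± 0.39, adjusted p = 0.0432). Lower was the target Hey1, which also stands in the list of ER- luminal markers (-1.57 ± 0.33, adjusted p = 0.0113). Both lost the call without Pregnancy BC 1, Pregnancy BC 2 or Adult BC 2 (up to 0.235 for Lfng and 0.0976 for Hey1), and Lfng also without Adult BC 1. In the FGF list of 21 genes, the ETS factors Etv5, at 5737 and 4967 in Pregnancy BC, against 1447 and 633 in Adult BC (2.48 ± 0.49, adjusted p = 0.0123), and Etv4 (1.67 ± 0.40, adjusted p = 0.0212) rose, and Fgfr3, Fgf1 and Spry2 fell (-1.91 ± 0.45, -0.80 ± 0.23 and -0.68 ± 0.16). All 5 calls were lost without Pregnancy BC 1, Pregnancy BC 2 or Adult BC 2.

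Several growth factor and cytokine genes fell. Of 18 EGF family ligand and receptor genes, 0 were called higher and 4 lower (median -0.56). Hbegf, a membrane-anchored EGF receptor ligand, had 537 and 514 in Pregnancy BC, against 3088 and 4829 in Adult BC (-2.88 ± 0.27, adjusted p = 9.34e-05). Tgfa, another ligand of that receptor, had 195 and 179, against 558 and 1182 (-2.11 ± 0.37, adjusted p = 0.00434), and lost the call without Adult BC 2 (0.0826). The neuregulin Nrg1 was not called, at 6221 and 4484 in Pregnancy BC, against 3457 and 3113 in Adult BC (0.69 ± 0.58, adjusted p = 0.5). Of 30 chemokine and cytokine genes, 0 were called higher and 3 lower (median -0.49), against 3.32% and 4.91% of all members. Cxcl15, among these, also stands in the list of ER+ luminal markers, and the part of luminal RNA in its fall was not tested. Il6, a cytokine that signals through STAT3, had 626 and 381 in Pregnancy BC, against 3746 and 5246 in Adult BC (-3.18 ± 0.45, adjusted p = 0.0016). Csf3, a growth factor of neutrophils, had 178 and 179, against 2053 and 1575 (-3.33 ± 0.46, adjusted p = 0.00138). Cxcl15 had 14 and 10, against 129 and 755 (-4.61 ± 0.84, adjusted p = 0.00794), and lost its call without Pregnancy BC 1, Pregnancy BC 2 or Adult BC 2 (up to 0.0849). EGF family genes called lower numbered 2, 2, 5 and 1 without Pregnancy BC 1, Pregnancy BC 2, Adult BC 1 and Adult BC 2. Hbegf, Il6 and Csf3 kept their calls under every alternative run. In Puberty BC, Il6 was at 972 and 1258, Csf3 at 140 and 155, and Hbegf at 562 and 964, so the adult libraries were the high ones of the 3 stages.

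Some receptors and transducers of cytokine signals were lower as well. Of 23 JAK-STAT genes, 0 were called higher and 7 lower (median -0.52). Stat3, which carries interleukin-6 family signals, had 7137 and 7428 in Pregnancy BC, against 14123 and 16383 in Adult BC (-1.06 ± 0.14, adjusted p = 0.000581). Its kinase partner Jak2 had 1525 and 1636, against 2834 and 3244 (-0.94 ± 0.17, adjusted p = 0.00524), and the oncostatin M receptor Osmr had 4357 and 4000, against 11324 and 20593 (-1.87 ± 0.40, adjusted p = 0.0191). Stat3 kept its call under every alternative run; Jak2 lost it without Pregnancy BC 1 or Adult BC 2 (up to 0.0812) and Osmr without Pregnancy BC 1, Pregnancy BC 2 or Adult BC 2 (up to 0.187). The list counts lower were 1, 2, 7 and 1 without Pregnancy BC 1, Pregnancy BC 2, Adult BC 1 and Adult BC 2. The prolactin-activated factors showed no such fall: Stat5a (-0.22) and Stat5b (0.10) were not called. Of 29 immediate-early genes, which respond within minutes to growth factors and to stress of tissue dissociation, 0 were called higher and 5 lower (median -0.43). Fold changes lay below 0 in 23 and above 0 in 6. Among those above 0 were Fos (0.09), Jun (0.48), Egr1 (0.20) and Ier2 (0.43), none of them called, also in basal libraries alone. The AP-1 subunit Fosl1 had 1061 and 832 in Pregnancy BC, against 3228 and 3765 in Adult BC (-1.89 ± 0.36, adjusted p = 0.0084), and Fosl2 had 5457 and 5878, against 15065 and 14668 (-1.39 ± 0.24, adjusted p = 0.00442). Fosl1 was lost without Pregnancy BC 2 or Adult BC 2 (up to 0.108) and Fosl2 without Pregnancy BC 1 or Adult BC 2 (up to 0.0536). Of 38 TGF-beta and BMP genes, 0 were called higher and 3 lower, against 3.32% and 4.91% of all members. Among them Smad7, an inhibitor of that pathway, had 932 and 868 in Pregnancy BC, against 2540 and 3900 in Adult BC (-1.81 ± 0.24, adjusted p = 0.000772), under every alternative run. Of 29 interferon response genes, 0 were called higher and 5 lower (median -0.65). Ifit1, an antiviral protein gene, had 106 and 226, against 490 and 1036 (-2.19 ± 0.45, adjusted p = 0.0114), and lost its call without Pregnancy BC 1 or Adult BC 2 (up to 0.159). Immediate-early genes called lower numbered 1, 1, 5 and 0 and interferon genes 0, 3, 4 and 0 in the same order of libraries left out.

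**Figure D5:**
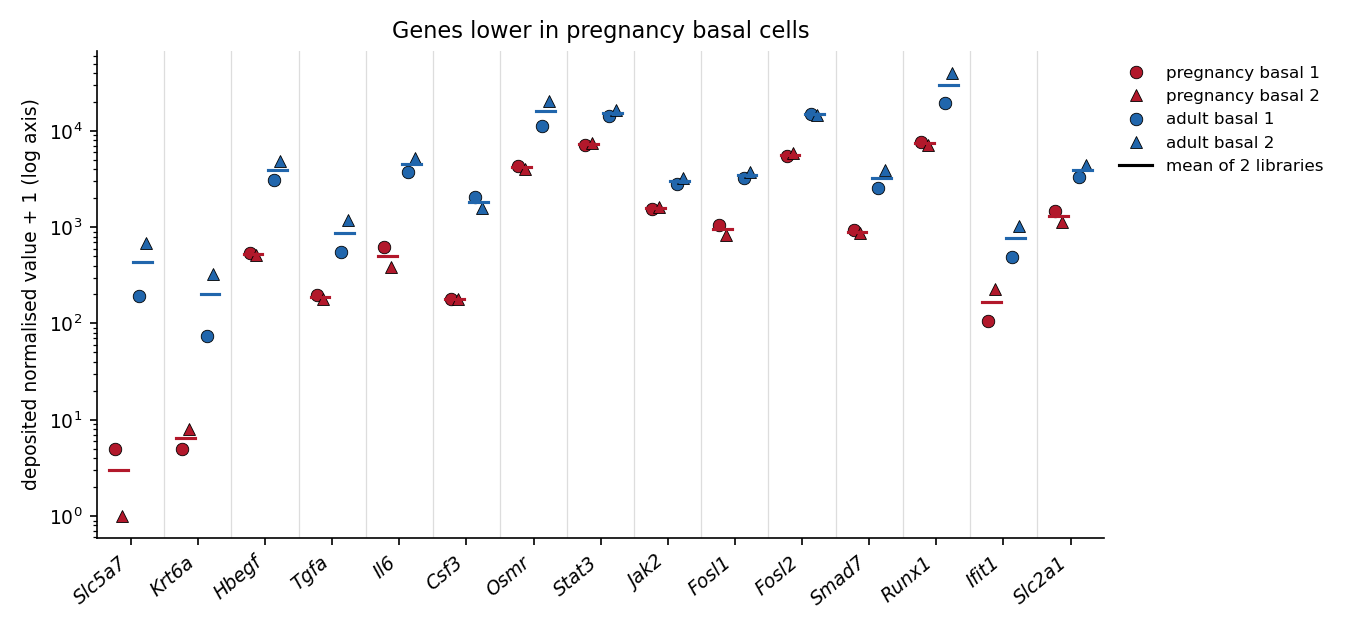
Deposited normalised value + 1 (log axis) of 15 genes called lower in Pregnancy BC (red) than in Adult BC (blue); circles are library 1, triangles library 2, and bars the mean of 2 libraries. No gene shown has overlapping groups, and Slc5a7 is at 4 and 0 in pregnancy. Both pregnancy libraries lie below both adult ones in 35.5% of all members.

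A choline transporter and a stress keratin fell to low values. Slc5a7, the high-affinity choline transporter known from cholinergic neurons (ENSMUSG00000023945, chr17:54273590-54299034, minus strand), had 4 and 0 in Pregnancy BC, against 194 and 680 in Adult BC (-7.35 ± 1.34, adjusted p = 0.00525). That is 1 read against 222, a ratio of adult over pregnancy of 220 (exact 95% counting interval 39.1 to 8730). Slc5a7 met the entry rule through the adult libraries alone, so its entry was not independent of the direction of its change. Its adjusted p and ratio are to be read with that limit. Puberty BC had 0 and 0, so of the 6 basal libraries only the adult ones were above 4. Other genes needed for acetylcholine release had no reads: Chat, which makes acetylcholine, and Slc18a3, which packs it into vesicles, were at 0 in all 4 libraries, where 3 reads would be a value of 4.95 over Pregnancy BC and 4.91 over Adult BC. Of 11 tested cholinergic genes, 0 were called higher and 2 lower, against 3.32% and 4.91% of all members. The lower ones were Slc5a7 and the nicotinic receptor subunit Chrnb1 (-1.66 ± 0.46, adjusted p = 0.045). Krt6a, a keratin of stressed and wounded epithelia (ENSMUSG00000058354, chr15:101689910-101694307, minus strand), had 4 and 7 in Pregnancy BC, against 73 and 329 in Adult BC (-4.63 ± 1.00, adjusted p = 0.0137). That is 3 reads against 99 (ratio 32.7, 10.9 to 161). Krt6a too met the entry rule through the adult libraries alone, and the same limit holds for it. Its near-identical neighbour Krt6b was at 0 and 0, against 0 and 5. Of 12 tested genes of stress and suprabasal keratins, 9 lay below 0 (median -1.28), with Krt6a called lower and 2 called higher, and quantile normalization called 5 lower. Krt13 (-3.38, adjusted p = 0.0565), Krt4 (-3.09, adjusted p = 0.06) and Krt16 (-2.24, adjusted p = 0.0624) were not called. The higher ones were Krt15 (1.40 ± 0.39, adjusted p = 0.0412) and Krt23 (1.87 ± 0.44, adjusted p = 0.0207). Slc5a7 lost its call without Pregnancy BC 2 or Adult BC 2 (up to 0.0912), Krt6a without Pregnancy BC 1, Pregnancy BC 2 or Adult BC 2 (up to 0.187), and Chrnb1, Krt15 and Krt23 without Pregnancy BC 1, Pregnancy BC 2 or Adult BC 2. Slc2a1, the glucose transporter GLUT1, fell under every alternative run, at 1456 and 1133, against 3321 and 4463 (-1.58 ± 0.19, adjusted p = 0.000382).

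Milk gene transcripts were present in basal libraries of both stages, and luminal marker sums were lower in pregnancy or overlapped. Of 19 milk protein genes, 1 was called higher and 0 lower (median 0.54), against 3.32% and 4.91% of all members. Wap, whey acidic protein, had 2289 and 1242 in Pregnancy BC, against 134 and 5 in Adult BC (5.89 ± 1.06, adjusted p = 0.0054). Csn2 was not called (2.30 ± 1.83, adjusted p = 0.477), and Lalba, of lactose synthesis, was at 191 and 259, against 1000 and 849 (-2.05 ± 0.77, adjusted p = 0.128). The 19 summed to 332883 and 463681 in Pregnancy BC, to 315488 in Adult BC 1 and to 70284 in Adult BC 2. In the milk fat list of 27, 2 were called higher, against 3.32% of all members. They were the fatty acid binding protein Fabp3, at 1074 and 1544, against 46 and 19 (5.39 ± 1.03, adjusted p = 0.00856), and the coactivator Ppargc1b (2.31 ± 0.39, adjusted p = 0.00318). The G protein regulator Rgs8 also rose, at 221 and 328, against 6 and 0. That is 166 reads against 2 (ratio 83.7, 22.8 to 697). Rgs8 met the entry rule through the pregnancy libraries alone, so its entry was not independent of the direction of its change. Pan-luminal markers summed to 49313 and 63588 in Pregnancy BC, against 101706 and 82215 in Adult BC, ER+ luminal markers to 6550 and 7825, against 14337 and 27884, and ER- luminal markers to 47583 and 51482, against 55785 and 48444. Of their 16, 15 and 16 tested genes, none was called higher and 1 in each list was called lower. These were Elf3, Cxcl15 and Hey1 in turn. Of all members, 3.32% were called higher and 4.91% lower. The part of luminal RNA in the milk gene values, and in the falls of Cxcl15 and Hey1, was not tested. Wap lost its call without Pregnancy BC 1 (0.0659), Fabp3 without Pregnancy BC 1, Pregnancy BC 2 or Adult BC 2 (up to 0.119), Ppargc1b without Adult BC 2 (0.0687), and Rgs8 without Adult BC 2 (0.074).

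Some genes known from macrophages were called higher and some known from vessels lower, while most markers of these cell types were not called. The macrophage genes Siglec1, at 244 and 802 in Pregnancy BC, against 8 and 52 in Adult BC (4.34 ± 0.90, adjusted p = 0.014), and Csf1r, at 791 and 1616, against 212 and 174 (2.55 ± 0.63, adjusted p = 0.0324), were higher, as was the complement gene C1qb, at 241 and 630, against 28 and 57 (3.25 ± 0.72, adjusted p = 0.0165). In all 3, Pregnancy BC 2 was over 2 times Pregnancy BC 1. Of 15 immune markers, 2 were called higher and 0 lower (median 0.42), against 3.32% and 4.91% of all members. The list summed to 3632 and 7829 in Pregnancy BC, against 2453 and 2814 in Adult BC. In basal libraries alone limma called none of the 15. Siglec1 lost its call without Pregnancy BC 2, C1qb without Pregnancy BC 2, Adult BC 1 or Adult BC 2, and Csf1r without any of the 4 (up to 0.115, 0.146 and 0.226). All 13 endothelial markers had both pregnancy libraries below both adult ones (median -0.99), as did 35.5% of all members. The markers summed to 9454 and 7795 in Pregnancy BC, against 19167 and 21716 in Adult BC. Of the 13, 0 were called by limma with all libraries (0 at an unadjusted p under 0.05) or by edgeR, and 6 by limma in basal libraries alone. Called lower were the vessel genes Mmrn1, at 40 and 10, against 387 and 572 (-4.47 ± 1.14, adjusted p = 0.0297), and Ackr1, at 162 and 123, against 1005 and 1093 (-2.88 ± 0.71, adjusted p = 0.0272), both lost without any 1 of the 4 libraries (up to 0.221 and 0.187). The part of other cell types in the results was not tested.

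The pregnancy effect in basal cells was set against the mean of that in ER+ and ER- luminal cells by a test of their signed difference, which does not say in which cells the change was greater. It was called in 1300 of 19423 members (6.69%), in 363 without Pregnancy BC 1, 472 without Pregnancy BC 2 and 612 without Adult BC 2. The 4 adult luminal libraries were shallower (2405246 to 3163643 reads) and had more mitochondrial transcripts (4.74% to 7.07%) than the basal ones (2.74% to 3.17%), which enters each such difference. Pregnancy LC ER- 2 stood apart from Pregnancy LC ER- 1, with 0.62% mitochondrial transcripts against 3.27%, and milk protein genes summing to 173366 against 928453. It enters each difference too, and no single luminal library was left out. Il6 was lower in Pregnancy BC than in Adult BC, while in luminal cells it was at 281 to 527 in pregnancy, against 42 to 101 in adults (difference -5.88 ± 0.56, adjusted p = 5.41e-05). Hbegf fell further in basal cells (difference -2.15 ± 0.33, adjusted p = 0.00151), and so did Stat3 (-0.84 ± 0.17, adjusted p = 0.00804). Slc2a1 fell in basal cells, at 1456 and 1133, while luminal cells had 1759 to 2719 in pregnancy, against 1660 to 2174 in adults (difference -1.80 ± 0.24, adjusted p = 0.000587). Dag1 rose more in basal cells (difference 0.93 ± 0.17, adjusted p = 0.00472). For Col4a1 the difference was -0.16 (adjusted p = 0.89), for Lamc1 0.28 (0.635) and for Igfbp2 0.81 ± 0.90 (0.653), and none of the 3 passed the threshold.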

How the data were processed

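Basal cells were sorted from mouse mammary glands, and RNA libraries were made with the Ovation Solo kit after RNeasy micro extraction, per the labels' protocols. The submitters' processing notes name STAR, HTSeq, Picard and the builds GRCm38 and mm10, without roles. The deposited signal values are read counts per gene that the authors scaled by a factor per library, to totals near 20000000. Whole reads were recovered for 99.8 to 100% of values. Of 46868 rows, 75 IDs listed with differing values were left out, and 46182 genes were kept.

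log2(value + 1) was fitted with limma 3.58.1 (R 4.3.3, trend and robust) over 9 groups, after a minimum value of 10, with Benjamini-Hochberg adjustment. A fold change on this scale understates the change of low genes. edgeR 4.0.16 and DESeq2 1.42.0 on recovered reads were alternatives. The members, gene lists and 149 named genes were chosen with earlier results of these data known; the naming rule took a panel of 21 genes, the 15 largest rises and falls among called members that do not overlap and lie above the median level, up to 6 called genes of each list, and 5 per direction with the largest difference from luminal cells. Myl9, Itgb4, Krt4, Krt13, Krt16, Stat5a and Stat5b were named after their values were seen. Whether counting used strand is not given in the sources used here, so overlapping, antisense and near-identical genes are uncertain. Reads carry no molecular identifiers, and intervals cover counting error only. Some results withheld for evaluation are not reported here. The limma script was tested on simulated data.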

Additional observations from a re-analysis of the deposited data

Results flagged for a closer look

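Each of 10 genes had a pregnancy effect in basal cells that differed, by limma's test of the difference, from the mean effect in ER+ and ER- luminal cells; adult luminal libraries were shallower, and 3 reads there are worth a value up to 24.74. Differences are basal minus luminal on the log2 scale.

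The effect was lower in basal than in luminal cells for Il6 (-5.88 ± 0.56, adjusted p = 5.41e-05), Slc5a7 (-7.35 ± 1.64, adjusted p = 0.0162), Gimap5 (-9.32 ± 1.16, adjusted p = 0.000373), Ackr1 (-6.73 ± 0.87, adjusted p = 0.000683) and Mmrn1 (-8.49 ± 1.40, adjusted p = 0.00299). Gimap5 was at 31 to 38 in pregnancy luminal libraries, against 0 in all 4 adult ones, and Ackr1 at 126 to 236, against 7 to 25, so these differences combine a fall in basal with higher luminal values. Slc5a7 was at 0 or 7 in every luminal library of both stages, so no luminal fall could have been measured, and its difference repeats the basal fold change.

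It was higher in basal than in luminal cells for Mfap4 (2.94 ± 0.64, adjusted p = 0.0145), Ror2 (4.02 ± 0.69, adjusted p = 0.00338), Hc (4.28 ± 0.77, adjusted p = 0.00615), Etv4 (2.43 ± 0.49, adjusted p = 0.00941) and Tex15 (2.67 ± 0.39, adjusted p = 0.00112). Mfap4 was at 122 to 443 in pregnancy luminal libraries, against 50 to 207 in adult ones.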

How the results depend on the processing

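The count of 1598 called members (645 higher, 953 lower) moved with the libraries used. Leaving out 1 compared library gave 193 to 2500 called, 63 to 1455 higher and 130 to 1045 lower, and for the difference from luminal cells 363 to 960 against 1300. The 4 compared libraries alone gave 858 (364 higher, 494 lower). DESeq2 gave 3004 (1529 higher, 1475 lower) and 2062 for the difference, and quantile normalization 2492 (1141 higher). edgeR gave 1190 higher and median-ratio size factors 1047. The replicate block gave 1749 (745 higher, 1004 lower); same-numbered samples of Pregnancy BC and Adult BC did not deviate together (correlation -0.019, and -0.146 to 0.317 over all 36 pairs of groups), so the numbers were not used as pairs. The cause of these shifts was not tested. The difference could not be had from the 4 compared or 6 basal libraries alone, or without adult luminal libraries. In the 6 basal libraries alone 24 named calls were lost, among them Wap, Siglec1, C1qb, Csf1r, Lgr5, Fgfr3, Chrnb1 and Hc. Chrnb1 was also lost by edgeR and median-ratio size factors, Itga6 and Flna under quantile normalization, and Actg2, Flna and Fgf1 with no filter on low values. Flna was lost too with array weights and without adult luminal libraries. The 4 compared libraries alone lost 47 of 132 named calls, among them Srf, Vcl, Actg2, Ror2, Axin2, Col7a1, Lgr5, Wap, Adamts1 and Ifit1. No named call changed direction. Adult BC 2 had 4231706 reads, the fewest of the 4 libraries, which limits its low values.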

Other observations

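Calls were counted by annotated gene type, with no test between types. Of 14866 protein-coding members 620 were called higher and 771 lower (9.36%), of 152 small nucleolar RNA genes 1 and 19 (13.2%), of 13 small Cajal body RNA genes 0 and 4 (30.8%), and of 831 antisense genes 4 and 37 (4.93%). The rise with the largest fold change, 9.57 on the log2 scale, was BC018473, an antisense gene named after its values were seen, at 755 and 3040 in Pregnancy BC, against 3 and 0 in Adult BC. BC018473 reached the entry value of 10 in the pregnancy libraries alone. Guidance genes that steer epithelial and axonal contacts included Epha2, an ephrin receptor, at 2582 and 2305 in Pregnancy BC, against 6192 and 8096 in Adult BC (-1.54 ± 0.24, adjusted p = 0.00215). Of 44 guidance genes tested, 2 were called higher and 4 lower, against 3.32% and 4.91% of all members.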
